A study of Rattus norvegicus with 18 samples.

Results

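Transcript levels were compared between alcohol-diet and isocaloric-diet rats in trained hippocampus, with 4 arrays in each group, 8 of the 18 arrays of a series on learning after alcohol exposure before birth. The 8 samples were chosen by their labels, which give a diet and a training procedure abbreviated CFC and not spelled out. The fit also held the naive rats of both diets (4 alcohol and 2 isocaloric arrays) and 4 arrays of the control diet (2 trained and 2 naive), and the naive arrays serve as a second reading of the diet difference. All 18 samples are rat hippocampus. In the labels 1 isocaloric trained sample has the diet spelled "Icocaloric" and 1 alcohol trained sample has "CFC-training", and both were placed with their groups. Age, sex, strain, dose, litter and the time from training to tissue collection are not given in the sources used here. The labels do not say that the samples of a group came from separate animals or litters, and the p-values therefore reflect sample-to-sample spread that can be technical in part.

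The hippocampus encodes the setting in which an event occurs, and its pyramidal and granule neurons change their synapses with experience. Alcohol during pregnancy is known to impair learning in the offspring. An isocaloric diet replaces the calories of alcohol with another energy source, so the comparison asks what differs with alcohol beyond calorie intake. In bulk tissue such as this, a change in the number of cells of a type and a change in RNA per cell cannot be told apart.

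In trained hippocampus 38 of 9520 probe sets (0.399%) differed between the diets at an adjusted p under 0.05 (limma, two-sided, Benjamini-Hochberg over all probe sets tested). Of these 29 were higher with alcohol (0.305% of those tested), covering 28 named genes and 1 probe set without a single gene symbol, and 9 were lower (0.0945%), each a named gene. Rises were 76.3% of the calls, and with each array centred on its median 67 probe sets were called and 92.5% of them were rises. The rises were led by Ptms (parathymosin), Agap3, Vamp2, Arpc4 and Cotl1, and the falls by Purb, Eif1a, Xpo1 and Ptgs2. Most differences were small, with a median size of 0.52 on the log2 scale and 3 probe sets past 2-fold. Levels are given as log2(signal + 6.06), and a change is the alcohol mean minus the isocaloric mean on that scale, which understates the change of dim probe sets.

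The sequences upstream of 4 of these genes are shown because Ptms and Agap3 were called under every alternative tried, Vamp2 was the rise with the next smallest p, and Ptgs2 is the activity-regulated gene among the falls. They are the 250 bases before the RefSeq start (build GRCr8, 5′ to 3′ on the gene's strand): Ptms at chr4:159412838-159413087 (minus strand), Agap3 at chr4:11617286-11617535 (minus), Vamp2 at chr10:54292539-54292788 (plus) and Ptgs2 at chr13:64713813-64714062 (plus). Capitals mark the GC box GGGCGG, the hexamer bound by Sp1-family factors, and the E-box CACGTG, each on either strand.
Ptms: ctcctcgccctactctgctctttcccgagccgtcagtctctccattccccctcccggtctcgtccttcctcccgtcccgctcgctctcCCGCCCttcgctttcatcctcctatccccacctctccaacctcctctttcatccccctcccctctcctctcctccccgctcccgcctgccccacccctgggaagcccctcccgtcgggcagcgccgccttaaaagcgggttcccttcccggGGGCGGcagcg
Agap3: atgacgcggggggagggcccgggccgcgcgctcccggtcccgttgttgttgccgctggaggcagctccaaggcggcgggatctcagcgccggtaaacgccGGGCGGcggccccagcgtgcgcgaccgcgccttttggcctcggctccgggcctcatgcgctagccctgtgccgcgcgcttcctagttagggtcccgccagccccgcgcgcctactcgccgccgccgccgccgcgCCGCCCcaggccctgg
Vamp2: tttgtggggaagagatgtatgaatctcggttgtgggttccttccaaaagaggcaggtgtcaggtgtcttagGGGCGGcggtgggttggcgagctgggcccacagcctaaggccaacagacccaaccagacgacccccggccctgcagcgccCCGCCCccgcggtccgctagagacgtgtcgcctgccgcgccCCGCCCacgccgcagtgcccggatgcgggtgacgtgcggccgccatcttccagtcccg
Ptgs2: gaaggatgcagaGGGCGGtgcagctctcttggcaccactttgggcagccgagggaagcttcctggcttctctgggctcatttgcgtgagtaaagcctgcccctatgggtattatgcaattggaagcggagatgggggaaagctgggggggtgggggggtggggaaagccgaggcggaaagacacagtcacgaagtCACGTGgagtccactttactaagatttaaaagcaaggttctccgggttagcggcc

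These windows hold 2, 2 and 3 GC boxes in the 3 genes that rose and 1 GC box with 1 E-box in Ptgs2. A promoter window was found for 27 of the 28 genes that rose, 8 of the 9 that fell, and 5818 of the 6938 named genes tested. Median GC content was 68.0% among the rises (44.8% to 86.8%), 65.6% among the falls (57.2% to 83.2%) and 61.2% over the genes tested. A GC box on either strand lay in 16 windows of genes that rose (59.3%) and 7 of genes that fell (87.5%), against 62.7% over the genes tested and 32.4% of all 27457 RefSeq windows of that length. The cAMP response element TGACGTCA, a palindrome, was found upstream of Clstn3 among the rises and Purb and Txnl1 among the falls. These were 3.70% of the rises and 25.0% of the 8 falls with a window, against 2.91% of genes tested and 1.70% of all windows. The motif TATAAA, searched on both strands, was found in the windows of Ckb and Farsa, 7.41% of the rises with a window, against 5.999% of genes tested and 13.1% of all windows. CACGTG was found in the windows of Tcea2, Nudt9 and Ptgs2. These were 7.41% of the rises and 12.5% of the 8 falls with a window, against 8.59% of genes tested and 5.795% of all windows. Each match is a stretch of letters and was not tested as a binding site.

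Before the results, the 8 arrays were compared with each other. Arrays of the same diet correlated at 0.967 to 0.981 and arrays of different diets at 0.960 to 0.979 on the log2 scale, and 0 pairs were identical. Markers of the hippocampal fields were measured on every array, with Prox1 (dentate granule cells) at a signal of 213.3 to 244.9 and Wfs1 (field CA1) at 760.6 to 1129, while 8 of the 11 striatal genes on the array were past the filter, among them Drd2 at 28.67 to 80.82, and Drd1 and Adora2a were not. Transthyretin (Ttr), which choroid plexus makes in quantity, lay at 12.84 on alcohol replicate 4 and 12.54 on isocaloric replicate 3, against 6.56 to 9.57 on the other 6. The summed signal of 16 choroid plexus genes on the array, 9 of them past the filter, ran from 1141 to 12150 in alcohol and from 1087 to 11070 in isocaloric samples, so 1 high array lay in each diet. With the series' 4 Ttr-high arrays left out, 3 probe sets were called, Ptms and Agap3 among them. The log2 ratio of 3′ to 5′ signal of Gapdh, which rises as RNA shortens, was 0.32, 0.24, 0.22 and 0.48 in the alcohol samples and 0.18, 0.13, 0.15 and 0.06 in the isocaloric samples. These values did not overlap: the means were 0.31 ± 0.12 and 0.13 ± 0.05 (SD, n = 4 each; exact two-sided permutation p = 0.0286, the smallest that 70 splits allow, 0.0857 adjusted over 3 ratios). The ratios of actin (exact permutation p = 0.371) and hexokinase (exact permutation p = 1.0) overlapped. With the Gapdh ratio as a covariate 5 probe sets were called, 2 of them, Ptms and Agap3, shared with the 38. In that fit all 38 kept their sign with a size within 1.5 times of that reported; the median size was 0.47, against 0.52, and the median standard error 0.13, against 0.10.

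**Figure D1:**
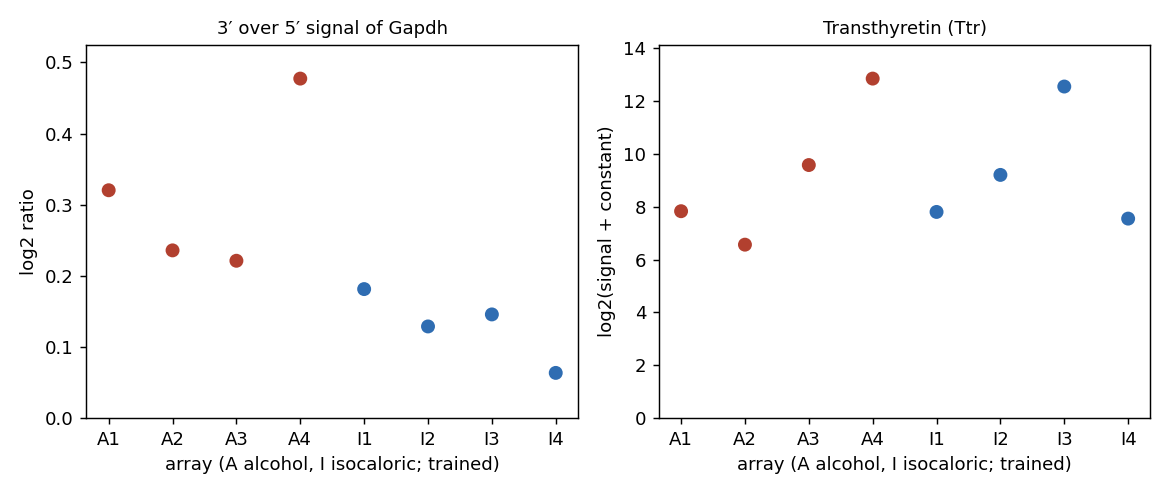
Log2 ratio of 3′ to 5′ Gapdh signal (left) and log2 level of Ttr (right) on the 4 alcohol trained (red, A1 to A4) and 4 isocaloric trained (blue, I1 to I4) arrays, 1 point per array. The Gapdh ratio was 0.22 or more in alcohol and 0.18 or less in isocaloric samples, and Ttr was highest on A4 (12.84) and I3 (12.54).

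Ptms had the smallest p of the comparison and encodes a small acidic nuclear protein related to prothymosin. Its level was 10.46, 10.71, 10.62 and 10.53 on the alcohol arrays and 9.905, 9.44, 9.47 and 9.39 on the isocaloric arrays. Every alcohol array lay above every isocaloric array, and isocaloric replicate 1 was the highest of its group. The change was 1.03 (SE 0.11, adjusted p = 0.000309), a 2.04-fold difference. Tcea2, a transcription elongation factor, rose by 0.47 (SE 0.09, adjusted p = 0.0291), the corepressor Tle5 by 0.36 (SE 0.06, adjusted p = 0.0254), the stress-related transcription factor Atf5 by 0.54 (SE 0.11, adjusted p = 0.0334) and the RNA helicase Dhx30 by 0.41 (SE 0.07, adjusted p = 0.0254).

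Purb, which binds purine-rich single-stranded DNA and RNA, was at 6.94, 6.80, 6.93 and 6.79 with alcohol and at 7.24, 7.73, 7.36 and 7.71 with the isocaloric diet. The alcohol arrays lay close together and the isocaloric arrays were spread, with no overlap. Purb fell by 0.65 (SE 0.12, adjusted p = 0.0254). Xpo1, the main export receptor for proteins leaving the nucleus, was at 7.80, 8.11, 7.79 and 7.81 with alcohol and at 8.32, 8.26, 8.61 and 8.47 with the isocaloric diet. Alcohol replicate 2 was the highest of its group and still lay under the lowest isocaloric array. Xpo1 fell by 0.53 (SE 0.10, adjusted p = 0.0291), while a second Xpo1 probe set stood at 0.14 (SE 0.10, adjusted p = 0.518). Bclaf1, linked to transcription and RNA processing, fell by 0.50 (SE 0.11, adjusted p = 0.0436), and its second probe set stood at -0.19 (adjusted p = 0.614). The list of nuclear transport genes (36 tested) also held Ptms, a nuclear protein that is not a transport receptor. Among the 36 genes Ptms rose, Xpo1 fell and 34 did not pass. Their median change was -0.03, against -0.02 over all probe sets.

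**Figure D2:**
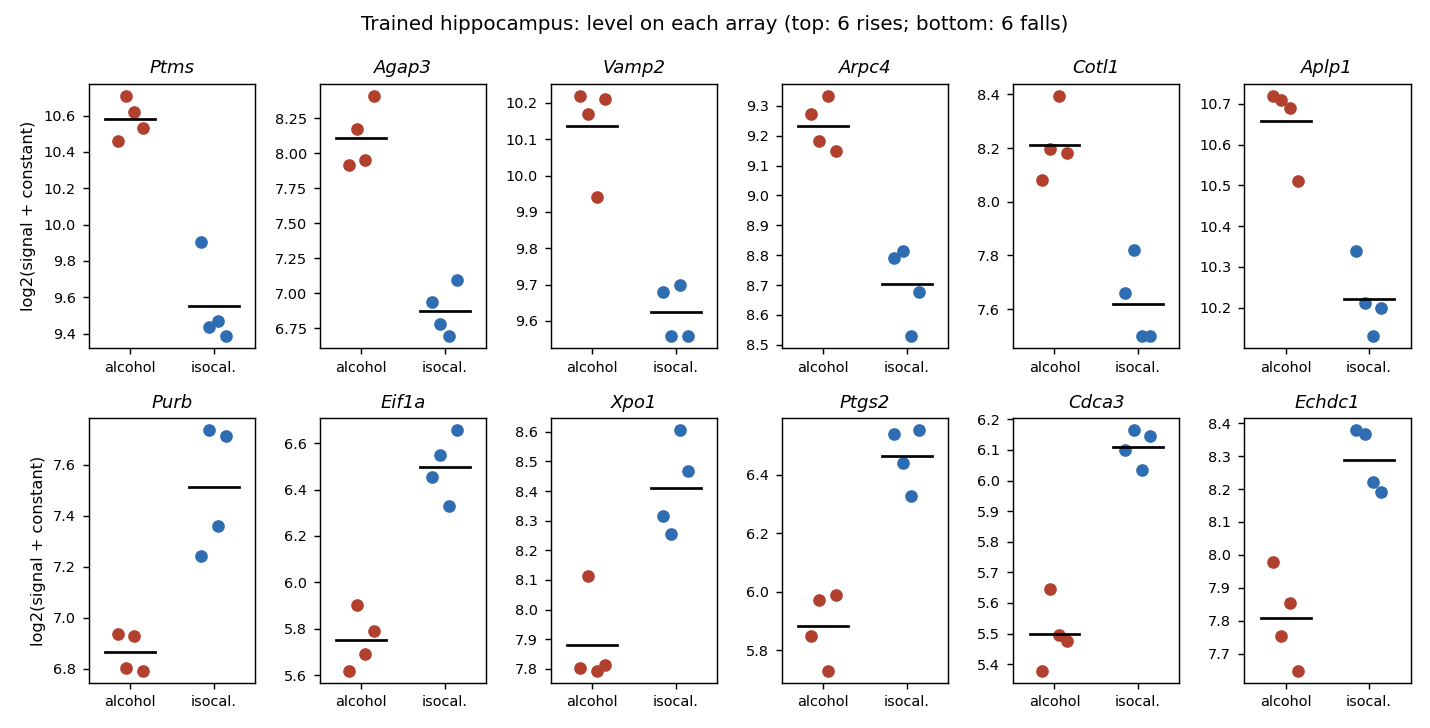
Log2 level on each alcohol trained (red) and isocaloric trained (blue) array for the 6 rises (top row) and 6 falls (bottom row) with the smallest p, 1 point per array with the group mean as a bar; each panel has its own axis, which does not start at 0. The groups do not overlap in any of the 12 panels, and the gap between the group means was 1.24 for Agap3 and 0.44 for Aplp1.

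Of 64 tested translation factors and tRNA synthetases, 2 rose, 1 fell and 61 did not pass, with a median of 0.03. The cap-dependent initiation helicase Eif4a1 rose by 0.36 (SE 0.07, adjusted p = 0.0348) and Farsa, a subunit of phenylalanyl-tRNA synthetase, by 0.67 (SE 0.14, adjusted p = 0.0397). Eif1a, an initiation factor of the small ribosomal subunit, was at 5.62, 5.90, 5.69 and 5.79 with alcohol and at 6.45, 6.55, 6.33 and 6.66 with the isocaloric diet. All 4 isocaloric arrays were higher than any alcohol array, and Eif1a fell by 0.75 (SE 0.14, adjusted p = 0.0291), the largest fall among those called. The 38 tested ribosomal protein genes had no call, with a median of 0.08 and 30 above 0, and the smallest p was that of Rpl34, at 0.20 (SE 0.08, adjusted p = 0.220).

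Vamp2 encodes the vesicle protein that drives fusion of synaptic vesicles with the presynaptic membrane. It was at 10.22, 10.17, 9.94 and 10.21 with alcohol and at 9.68, 9.56, 9.70 and 9.56 with the isocaloric diet. The lowest alcohol array was replicate 3, and the groups did not overlap. Vamp2 rose by 0.51 (SE 0.08, adjusted p = 0.0120), and in the list of 29 tested synaptic vesicle and active zone genes it was the only call, with 28 that did not pass and a median of 0.03. Septin5, a filament protein that associates with synaptic vesicles, rose by 0.51 (SE 0.11, adjusted p = 0.0397).

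Aplp1, a neuronal member of the amyloid precursor family, was at 10.72, 10.71, 10.69 and 10.51 with alcohol and at 10.34, 10.21, 10.13 and 10.20 with the isocaloric diet. Alcohol replicate 4 was the lowest of its group, above all isocaloric arrays. Aplp1 rose by 0.44 (SE 0.08, adjusted p = 0.0229). The synaptic adhesion protein Clstn3 rose by 0.51 (SE 0.10, adjusted p = 0.0381), the sialomucin Podxl2 by 0.69 (SE 0.13, adjusted p = 0.0291) and Pcsk1n, the precursor of an inhibitor of prohormone convertase 1, by 0.39 (SE 0.08, adjusted p = 0.0356). Pcsk1n was the only call among 22 tested neuropeptide and granin genes.

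Camk2n1, an inhibitor of the calcium/calmodulin-dependent kinase II, was at 6.76, 6.29, 6.60 and 6.55 with alcohol and at 6.86, 6.98, 7.35 and 7.12 with the isocaloric diet, the highest alcohol array lying just under the lowest isocaloric array. Camk2n1 fell by 0.53 (SE 0.11, adjusted p = 0.0477), and its second, brighter probe set stood at 0.35 (SE 0.16, adjusted p = 0.318). None of the 36 tested genes of the CaMK, calcineurin, PKA and PKC list was called, with a median of 0.01. Of the 36, 4 were higher and 4 lower without overlap (22.2%, against 9.2% over all probe sets). The smallest p was that of Rapgef4, at -0.72 (SE 0.17, adjusted p = 0.0705, without overlap) in trained and -1.02 (adjusted p = 0.0598) in naive samples. The summed signal of 13 pan-neuronal genes was 17120 to 18750 in alcohol and 16220 to 16910 in isocaloric samples, without overlap, led by Snap25 at 4023 to 4829 against 3649 to 3822. The total signal of the array, which includes these genes, also did not overlap, at 3038000 to 3134000 in alcohol and 2981000 to 3030000 in isocaloric samples. The trimmed mean was 150.0 on every array. Median log2 levels overlapped, at 6.268 to 6.343 in alcohol and 6.321 to 6.394 in isocaloric samples. Whether the separation was particular to the pan-neuronal genes was not tested. Of the 13, 8 were higher and 5 lower with alcohol, 0 were called, and the changes ran from -0.28 (Nefm, lower without overlap) to 0.39 (Tubb3). Their part in the changes of Vamp2, Septin5 and Aplp1 was not tested.

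Agap3, a GTPase-activating protein for Arf found at excitatory synapses, was at 7.92, 8.17, 7.95 and 8.41 with alcohol and at 6.94, 6.78, 6.70 and 7.10 with the isocaloric diet. The groups lay far apart in relation to their spread. Agap3 rose by 1.24 (SE 0.17, adjusted p = 0.004575), a 2.36-fold difference, and its other probe sets stood at 0.57 (adjusted p = 0.0847, no overlap) and 0.24 (adjusted p = 0.628). Git1, another Arf GTPase-activating protein and a synaptic scaffold, rose by 0.34 (SE 0.07, adjusted p = 0.0408). These 2 were the calls among 46 tested regulators of Arf, Rab and Rap, whose median was 0.01.

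Arpc4, a subunit of the Arp2/3 complex that nucleates branched actin filaments, was at 9.27, 9.18, 9.33 and 9.15 with alcohol and at 8.79, 8.81, 8.53 and 8.68 with the isocaloric diet. Both groups were tight, and Arpc4 rose by 0.53 (SE 0.09, adjusted p = 0.0188). Cotl1, a coactosin-like protein that binds filamentous actin, rose by 0.59 (SE 0.10, adjusted p = 0.0188), from a mean of 7.62 ± 0.15 to 8.21 ± 0.13 (SD, n = 4 each). In the list of 35 actin and Arp2/3 genes Arpc4 was called and 34 did not pass, with a median of -0.00059.

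Mast3, a microtubule-associated serine/threonine kinase, showed the largest difference of the 38 and also the widest spread. It was at 6.67, 5.89, 7.16 and 6.74 with alcohol and at 5.50, 5.73, 4.99 and 4.49 with the isocaloric diet. Alcohol replicate 2 lay just above isocaloric replicate 2. The change was 1.43 (SE 0.29, adjusted p = 0.0384), and the other Mast3 probe sets stood at 0.14 (adjusted p = 0.547) and -0.01 (adjusted p = 0.992). The receptor kinase Grk2 rose by 0.53 (SE 0.10, adjusted p = 0.0291), the sphingosine kinase Sphk2 by 0.54 (SE 0.11, adjusted p = 0.0334), and Ppp2r2c, a regulatory subunit of protein phosphatase 2A, by 0.53 (SE 0.10, adjusted p = 0.0291). Pik3r2, a regulatory subunit of phosphoinositide 3-kinase, rose by 0.41 (SE 0.09, adjusted p = 0.0398) and the kinase Akt1 by 0.47 (SE 0.10, adjusted p = 0.0416). A second Pik3r2 probe set stood at 0.19 (adjusted p = 0.27). The 3 Akt1 probe sets disagreed: the others stood at -0.41 (adjusted p = 0.120, alcohol below isocaloric without overlap) and 0.11 (adjusted p = 0.522).

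Ptgs2 encodes cyclooxygenase-2, which in the hippocampus is induced in excitatory neurons by synaptic activity. It was at 5.85, 5.97, 5.73 and 5.99 with alcohol and at 6.54, 6.44, 6.33 and 6.55 with the isocaloric diet. No alcohol array reached the lowest isocaloric array, and Ptgs2 fell by 0.58 (SE 0.11, adjusted p = 0.0334). Its mean level was low, at 6.275 over all arrays, against a median of 7.312 over all probe sets tested. The call was lost under 12 of the 21 alternatives that tested Ptgs2, leaving aside those added later. Ptgs2 was the only call among 22 tested immediate early genes, 21 of which did not pass. The median of that list was -0.06 and 6 of its members were above 0.

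The activity-regulated genes named for their role in memory did not pass. Arc was at 7.49 to 7.99 with alcohol and 7.44 to 8.27 with the isocaloric diet (-0.11, SE 0.14, adjusted p = 0.760), and Egr1 at 8.82 to 9.18 against 8.77 to 9.05 (0.09, SE 0.14, adjusted p = 0.812). The neurotrophin gene Bdnf stood at -0.03 (SE 0.15, adjusted p = 0.952). The scaffold gene Homer1 stood at 0.01 (SE 0.07, adjusted p = 0.960) on its brightest probe set and between -0.25 and -0.15 on 3 others, of which 1 did not overlap (-0.25, adjusted p = 0.240). Fos was too dim to be tested.

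Glutamate receptor genes had no call among 10 tested NMDA, AMPA and kainate subunits, whose median was 0.05. Grin1, the obligatory NMDA receptor subunit, was at 9.24 to 9.50 with alcohol and 8.88 to 9.16 with the isocaloric diet, without overlap, and its change was 0.30 (SE 0.13, adjusted p = 0.282). Gria1 stood at 0.17 (SE 0.11, adjusted p = 0.490) and Grin2b at -0.04 (SE 0.21, adjusted p = 0.958). Camk2a, the alpha subunit of the kinase that Camk2n1 inhibits, stood at -0.53 (SE 0.22, adjusted p = 0.253), lower in all 4 alcohol arrays than in any isocaloric array, and at 0.22 (adjusted p = 0.772) on a second probe set. The growth-cone gene Gap43 stood at -0.07 (SE 0.09, adjusted p = 0.788) and the neuronal RNA-binding gene Elavl4 at -0.12 (SE 0.10, adjusted p = 0.589).

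Brain creatine kinase (Ckb), which buffers ATP, was at 10.54, 10.75, 10.81 and 10.50 with alcohol and at 10.25, 10.17, 9.96 and 9.94 with the isocaloric diet, without overlap. Ckb rose by 0.57 (SE 0.11, adjusted p = 0.0291). It was the 1 call among 25 tested genes of glycolysis and the creatine kinases, of which 19 were above 0 and 6 were higher without overlap, with a median of 0.13. Over all 9520 probe sets 45.9% were above 0 and 437 (4.59%) were higher without overlap.

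The nucleotide hydrolases Nudt3 and Nudt9 rose by 0.42 (SE 0.08, adjusted p = 0.0291) and 0.55 (SE 0.11, adjusted p = 0.0291), and the ADP-ribosyl hydrolase Adprh by 0.47 (SE 0.10, adjusted p = 0.0397). A second Nudt3 probe set stood at 0.17 (adjusted p = 0.506). Park7, which encodes the oxidative stress sensor DJ-1, rose by 0.30 (SE 0.06, adjusted p = 0.0291), the smallest change of the 38. Txnl1, a thioredoxin-like protein that associates with the proteasome, fell by 0.37 (SE 0.08, adjusted p = 0.0410), and Echdc1, an enzyme that removes a side product of fatty acid synthesis, by 0.48 (SE 0.10, adjusted p = 0.0397). A second Txnl1 probe set stood at -0.20 (adjusted p = 0.555). Cdca3, a cell cycle gene, fell by 0.61 (SE 0.12, adjusted p = 0.0378) at a low level (5.50 against 6.11).

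The nuclear-encoded subunits of oxidative phosphorylation had no call, and 58 of the 70 tested were above 0, with a median of 0.09 and a range of -0.22 to 0.41. The 34 proteasome genes had a median of 0.05 with 25 above 0 and no call. The size of these medians depended on how the arrays were brought to a common level. After quantile normalisation they were 0.03 for oxidative phosphorylation, 0.01 for ribosomal proteins, 0.04 for the proteasome and 0.05 for glycolysis, and after centring each array on its median they were 0.15, 0.13, 0.10 and 0.18. Centring moved the median of all changes from -0.02 to 0.04. The 16 tested genes of the glucocorticoid response had the lowest median of the functional lists, -0.20, and no call. Nr3c1, the glucocorticoid receptor, stood at -0.33 (SE 0.08, adjusted p = 0.0854), without overlap between the diets. No member was called in the lists for GABA, ion channels, axon growth, growth factor signalling, chaperones, ethanol metabolism, cholesterol synthesis, ubiquitin or chromatin.

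**Figure D3:**
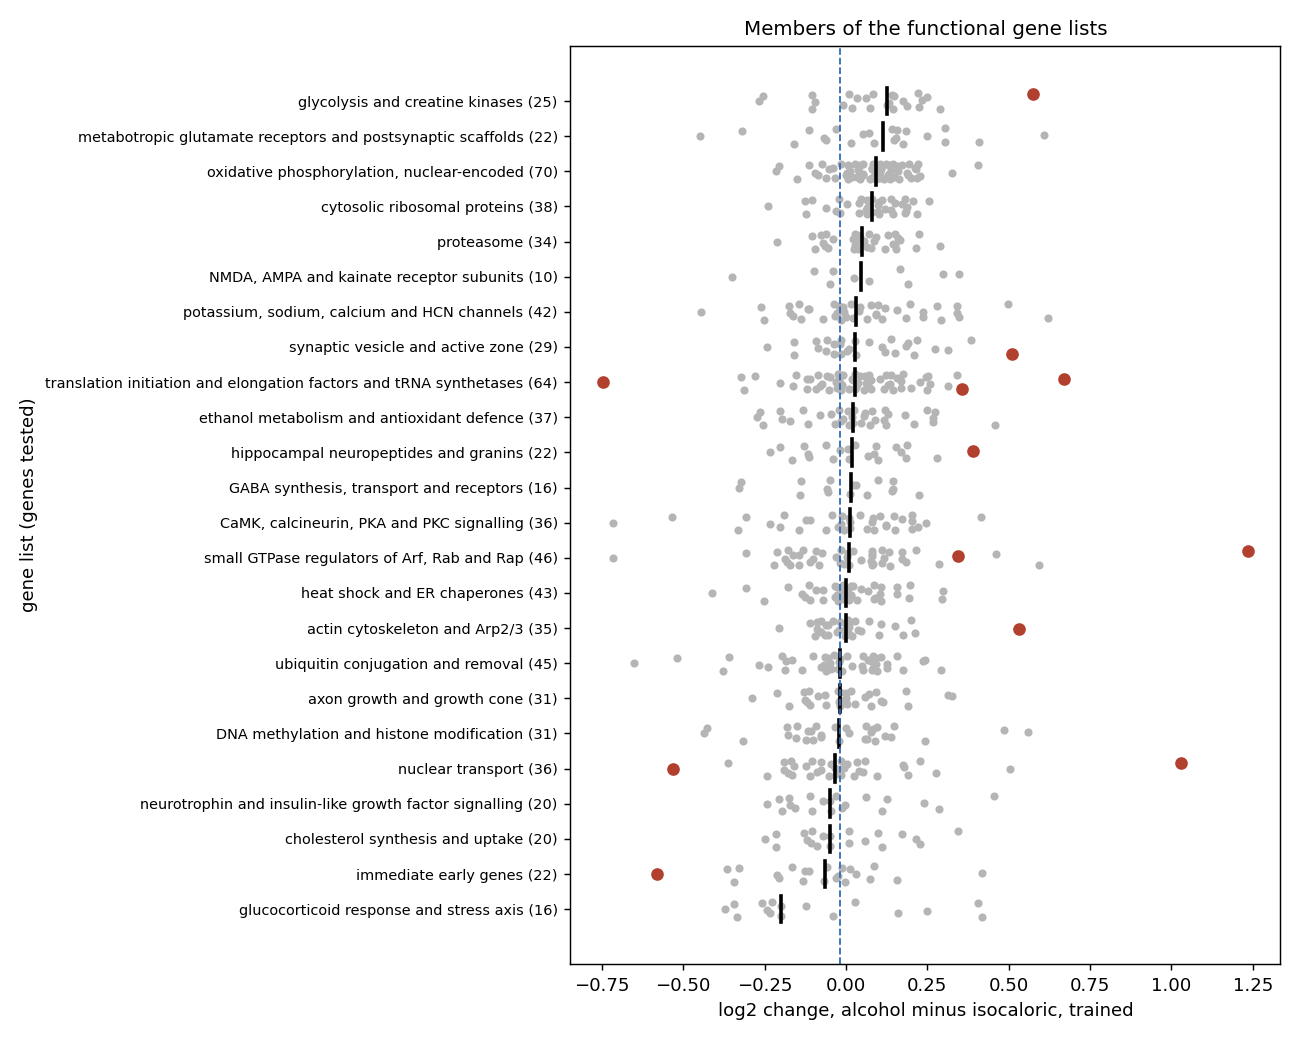
Log2 change between the diets in trained samples for each tested member of 24 functional gene lists (number tested in brackets), with called members in red, the list median as a black bar and the median of all probe sets (-0.02) as a dashed line. Medians ran from -0.20 for the glucocorticoid response to 0.13 for glycolysis and the creatine kinases, and most lists hold no called member.

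Lists of cell type markers had no call. Medians were 0.11 for pan-neuronal genes (13 tested), 0.08 for astrocytes (20), -0.06 for oligodendrocytes (17), -0.02 for microglia (14), and 0.19 for meninges and fibroblasts (9). The summed meningeal signal was 1630 to 5360 with alcohol and 1583 to 3058 with the isocaloric diet, which overlap. The changes of these 9 genes ran from -0.46 (Col1a1, adjusted p = 0.243) to 0.85, and 6 were above 0. The astrocyte sums overlapped, at 27920 to 34430 and 27870 to 31040.

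Just outside the threshold lay 24 probe sets with an adjusted p up to 0.0704, 16 higher and 8 lower with alcohol, all without overlap between the diets. Among the higher were both probe sets of Pfkm, a glycolytic enzyme chosen here after its values were seen, at 0.39 (SE 0.09, adjusted p = 0.0549) and 0.29 (SE 0.07, adjusted p = 0.0703), and the potassium channel subunit gene Kcnab2 at 0.34 (SE 0.08, adjusted p = 0.0662). The lower genes are given as values that did not pass. Zfp638 stood at -0.998 (SE 0.23, adjusted p = 0.0695), Cnot7, a deadenylase subunit, at -0.71 (SE 0.16, adjusted p = 0.0662), Klf13 at -0.57 (SE 0.13, adjusted p = 0.0662), Parg at -0.40, Alkbh5 at -0.39 and Commd8 at -0.28. Non-overlap was common: 876 probe sets (9.2% of those tested) had no overlap between the diets, 437 higher and 439 lower with alcohol, while 1401 had an unadjusted p under 0.05. All 38 called probe sets were among the non-overlapping.

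The naive arrays allowed the diets to be compared without training, and the fit shares 1 estimate of spread but no array between the trained and naive differences. There 7 of 9520 probe sets (0.0735%) were called, all lower with alcohol: Ube2d2, Apc, Serinc1, Taf9b, Xpo1, Fam131a and 1 without a symbol. Xpo1 was called in both, at -0.53 in trained and -0.69 (adjusted p = 0.0327) in naive samples. Of the 38 trained calls 37 had the same sign in naive samples, against 66.4% of all probe sets tested, and Atf5 had the opposite sign (0.54 and -0.04). In naive samples 22 of the 38 (57.9%) had no overlap in the trained direction, against 22.9% of all probe sets and a non-overlap in either direction of 29.1%. The median naive change toward the trained direction was 0.22, against a trained median size of 0.52, and the calls were chosen for a large trained change.

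Ptms stood at 0.58 (SE 0.14, adjusted p = 0.110) in naive samples, with alcohol arrays at 10.46, 10.18, 10.37 and 10.24 and isocaloric arrays at 9.95 and 9.51. Agap3 stood at 0.46 (SE 0.21, adjusted p = 0.381). The naive change was near 0 for Aplp1 (0.04), Grk2 (0.05), Sphk2 (0.05), Git1 (0.06), Akt1 (0.09), Vamp2 (0.10), Purb (-0.05) and Atf5 (-0.04). It was close to the trained change for Txnl1 (-0.37 and -0.37), Pik3r2 (0.37 and 0.41), Pcsk1n (0.34 and 0.39) and Clstn3 (0.43 and 0.51), and larger than it for Ptgs2 (-0.62 and -0.58) and Xpo1.

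**Figure D4:**
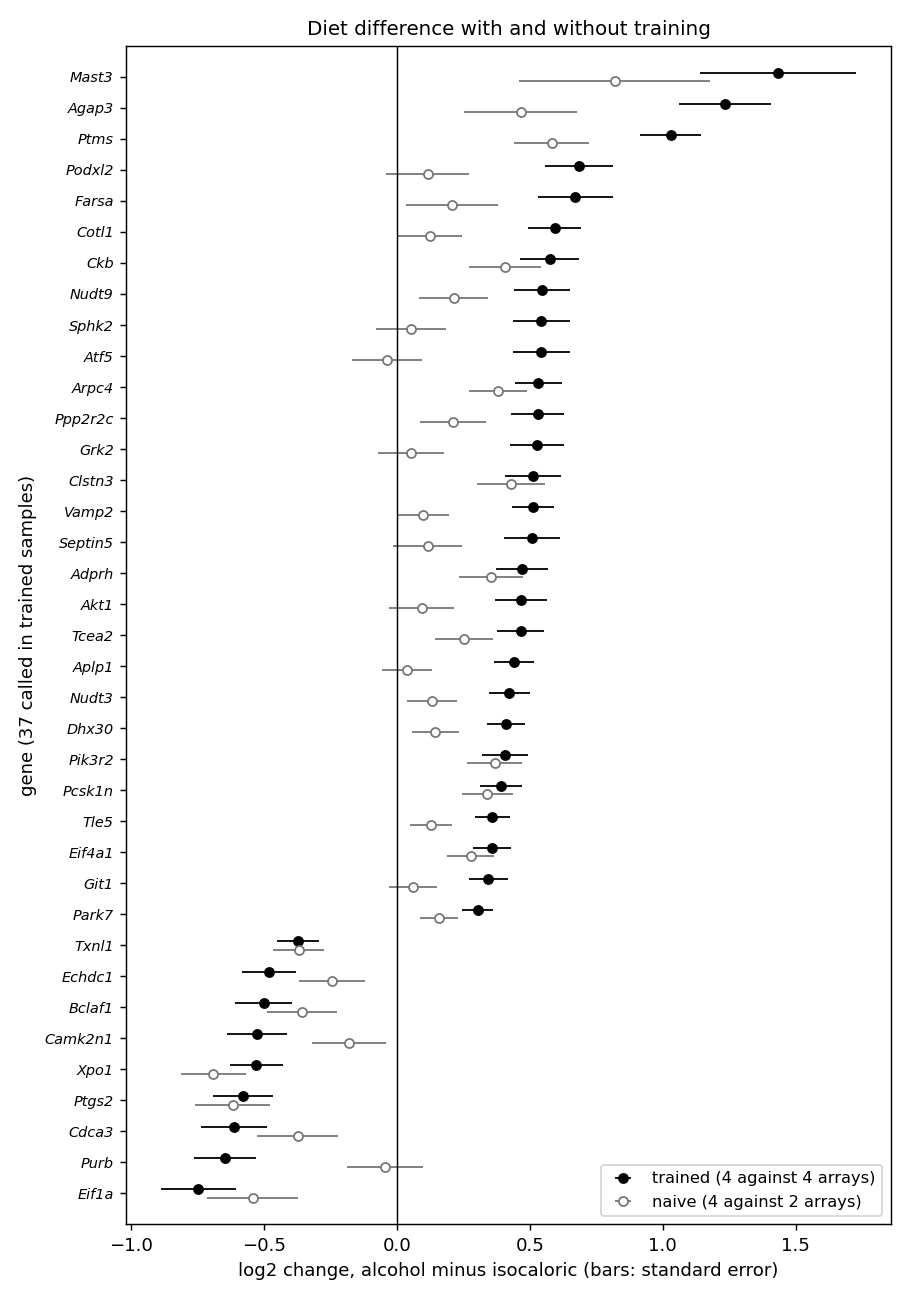
Log2 change between alcohol and isocaloric diets for the 37 named genes called in trained samples, in trained (filled, 4 against 4 arrays) and naive (open, 4 against 2 arrays) samples, with standard errors as bars. Atf5 is the gene whose naive point lies on the other side of 0 from its trained point, and the naive point of every rise lies nearer 0 than its trained point.

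The difference between the trained and the naive diet effects, tested as an interaction, called 0 of 9520 probe sets in limma, with 401 at an unadjusted p under 0.05 (4.21%) and a smallest adjusted p of 0.326. The probe sets with the smallest p were Fam131a (0.10 in trained and -0.58 in naive samples), the sodium channel gene Scn3a (-0.44 and 0.67) and the heparan sulphate proteoglycan gene Sdc3 (0.65 and -0.61), then Tsen15 (-0.42 and 1.67), a probe set without a symbol, and Actn1 (0.53 and -0.43). The 2 isocaloric naive arrays of Tsen15 lay far apart, at 5.85 and 3.91. In trained samples a second Sdc3 probe set stood at 0.47 (adjusted p = 0.224) and a second Actn1 probe set at 0.08 (adjusted p = 0.86). Among the 38 trained calls 17 had an unadjusted interaction p under 0.05, 16 of the 29 rises and 1 of the 9 falls (Purb). The calls were chosen for a large trained change, so this count is a description. Vamp2 (unadjusted p = 0.00383), Aplp1 (0.00337) and Atf5 (0.00305) were among them, and 0 passed after adjustment.

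The 2 control trained arrays gave a further level for the called probe sets. In 24 of the 38 the control mean lay beyond the isocaloric mean, away from alcohol (17 rises and 7 falls), in 14 between the diets, and in 0 beyond the alcohol mean. The calls were chosen for a wide gap between the 2 diets, so these counts are a description. The share over all probe sets was not computed. The control mean rests on 2 arrays: replicate 1 was high in Ttr (12.53), and on replicate 2 100% of the values had at most 6 digits, against 3.165% on replicate 1. For Ptms the control trained mean was 9.54, next to the isocaloric 9.55, and for Pik3r2 it was 7.35 against 8.14 and 8.55 with the isocaloric and alcohol diets. For Purb, the fall with the smallest p, the control trained mean of 6.97 lay nearer the alcohol mean of 6.86 than the isocaloric mean of 7.51.

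The calls differed in how far they held. Of the called genes 9 had other probe sets tested. Of these 12 other probe sets 8 changed in the same direction, and none was called. Ptms and Agap3 were called under all 30 alternatives, with adjusted p up to 0.0126 and 0.0312 and changes of 0.95 to 1.15 and 1.08 to 1.48. Vamp2 was lost under 3 of the 22 alternatives other than those added later and Arpc4 and Cotl1 under 4 each. At the other end Pik3r2, Txnl1, Bclaf1 and Camk2n1 were lost under 15, while their changes kept their sign, at 0.33 to 0.47, -0.40 to -0.29, -0.60 to -0.39 and -0.60 to -0.43. Leaving out 1 trained array left 2 to 23 calls. Without isocaloric replicates 1, 2, 3 and 4 in turn there were 20, 4, 3 and 2, and without alcohol replicates 1, 2, 3 and 4 there were 19, 11, 3 and 23. Naive arrays enter through the shared spread, and leaving out isocaloric naive replicates 1 and 2 in turn gave 20 and 14 calls, and alcohol naive replicate 3 gave 20.

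**Figure D5:**
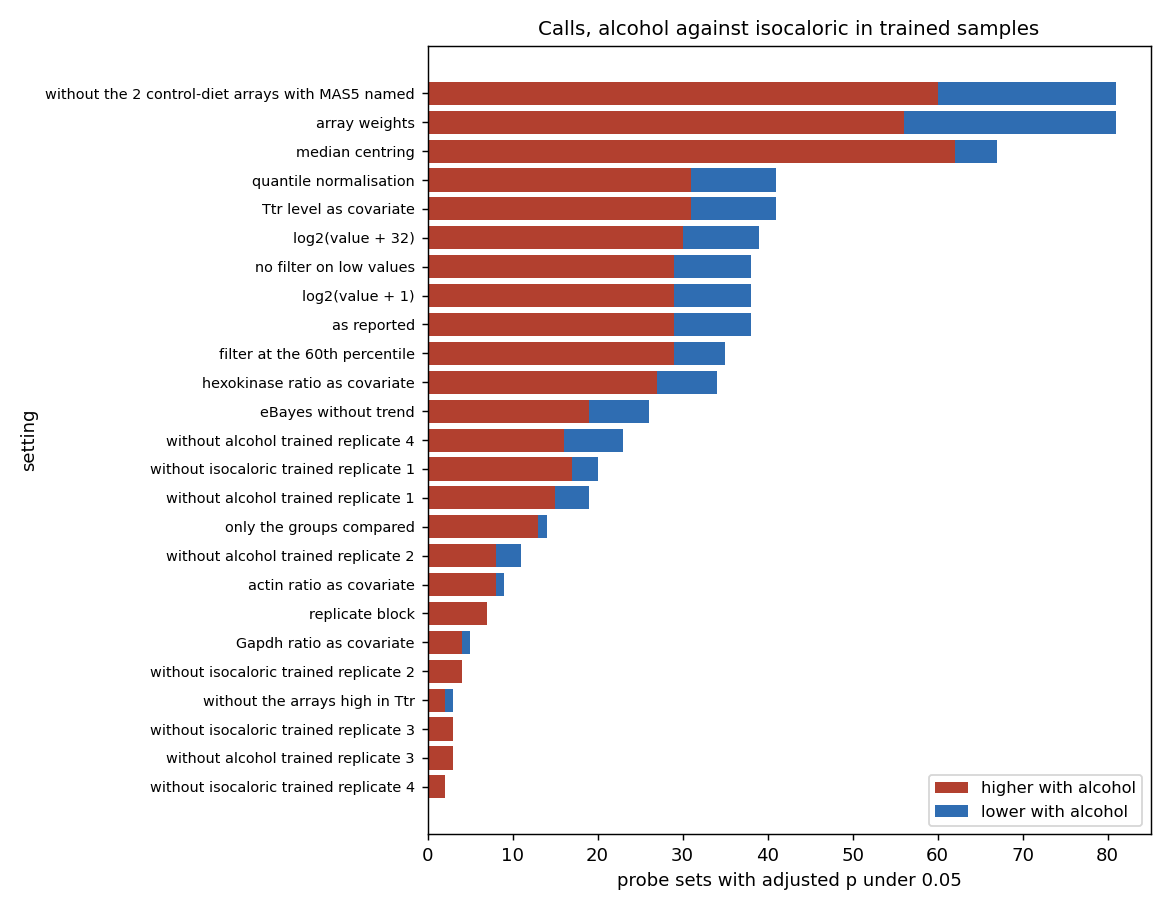
Number of probe sets with an adjusted p under 0.05, higher (red) and lower (blue) with alcohol, in trained samples under the settings of the fit. Settings that left out a single naive array are not drawn. The count was 38 as reported and ran from 2 without isocaloric trained replicate 4 to 81 with array weights or without the 2 control-diet arrays that have MAS5 named.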

How the data were processed

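RNA of rat hippocampus was measured on 18 arrays, 1 per sample, and groups followed the sample descriptions. The values deposited by the authors are linear intensities, 1 for each probe set. The submitters' processing notes name MAS5 for 2 control-diet samples, with the method for the others not given in the sources used here. The trimmed mean was 150.0 on every array, so a shift in total RNA would not be seen.

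Intensities were taken as log2(value + 6.06), the 10th percentile of all values. The 57 control probe sets and those with a mean under the 40th percentile were left out, and 9520 were tested. limma 3.58.1 (R 4.3.3) was fitted to 6 group means over all 18 arrays with a trend in eBayes, and p-values were adjusted by Benjamini-Hochberg at 0.05; ratios used exact permutation. The number of arrays limits the precision. Of 15923 probe sets 12789 had 1 gene symbol; those with several (312) or none (2822) were not named. Genes named were all called genes with 1 symbol, up to 15 per direction by smallest p, called list members and the member of each list with the smallest p, 12 further genes, from Gap43 to Ttr, and the 5 smallest interaction p-values. Lists used the brightest probe set per gene. The members and lists were chosen with earlier results of these data known. Promoter windows came from RefSeq (GRCr8). Python 3.11.15, pandas 2.3.3, numpy 2.4.6 and matplotlib 3.10.9 were used, and the fit was tested on simulated data.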

Additional observations from a re-analysis of the deposited data

Results flagged for a closer look

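Among 192 groups of 4 arrays (the named genes, the 3′ to 5′ ratios and the array medians in each of the 2 diets), 14 held 1 array far from the other 3, where chance gives about 1 in 20 by Dixon's test. Among called genes, Ptms on isocaloric trained replicate 1 was at 9.905 against a median of 9.438 on the other 3, which brings the groups closer, as does Xpo1 on alcohol replicate 2 (8.112 against 7.804), Aplp1 on alcohol replicate 4 (10.51 against 10.71) and Park7 on alcohol replicate 1 (9.596 against 9.712). The array lay away from the other diet for Nudt3 on isocaloric replicate 2 (9.258 against 9.486), Atf5 on isocaloric replicate 2 (6.621 against 7.118) and Bclaf1 on isocaloric replicate 4 (8.651 against 8.469).

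Among genes that did not pass, Klf13 on alcohol replicate 4 was at 5.737 (median of the others 6.29), Commd8 on isocaloric replicate 1 at 7.923 (7.978), Parg on isocaloric replicate 4 at 7.032 (7.274) and Msmo1, of cholesterol synthesis, on isocaloric replicate 1 at 9.412 (9.461). The CA3 marker St18 on alcohol replicate 3 was at 5.59 (6.133), the dopamine receptor gene Drd2 on alcohol replicate 2 at 5.118 (5.953) and the thalamic marker Prkcd on isocaloric replicate 2 at 6.687 (6.869).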

How the results depend on the processing

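In trained samples the count of 38 was 5 with the Gapdh ratio as a covariate, 9 with the actin ratio, 14 with only the groups compared, 67 with median centring, 81 with array weights, 81 without the 2 control-diet arrays with MAS5 named, 7 with replicate number as a block, and 3 without the arrays high in Ttr (chosen after seeing the data, as were the Ttr covariate and leaving out arrays of the state not compared). Leaving out single arrays of the 4 groups gave 2 to 38. In the other settings it was 26 to 41. Deviations of same-numbered arrays correlated at -0.12 to 0.11, and those of differently numbered arrays at -0.20 to 0.29. The labels do not say that same-numbered samples are paired. So few correlations cannot decide whether the block is a paired design. The interaction count of 0 became 1 with array weights and 0 to 1 with single arrays left out (1 without isocaloric naive replicate 1).

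The naive count of 7 was 0 with the actin ratio, 0 with median centring, 0 with the replicate block, 1 with no filter, 3 without the Ttr-high arrays, 15 with only the groups compared, 16 with log2(value + 32), 26 without the 2 MAS5 arrays, 35 with quantile normalisation and 551 with array weights. With single arrays left out it was 0 to 15, with 0 without alcohol naive replicate 3 and without isocaloric naive replicate 2, 1 without isocaloric naive replicate 1 and 15 without alcohol naive replicate 1. The causes were not tested.

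No called value reversed. Of 55 named values that did not pass, 8 changed sign under some alternative. Of the list medians 28 values moved by more than the spread between arrays, most with median centring. Only 2 isocaloric naive arrays were measured, which limits the naive and interaction results.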
